A study of Homo sapiens with 48 samples.

Results

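Untreated cells of 2 uveal melanoma lines, MP41 and 92-1, were compared gene by gene. Members were chosen by label: the DMSO libraries of the FHT-1015 experiments of these lines, 12 of the 48 samples in the series, with 6 of MP41 and 6 of 92-1. Each line has 3 libraries at 4 h and 3 at 24 h, labelled as biological replicates, of uveal melanoma cells labelled WT for genotype and given DMSO alone as the negative control. The series measured RNA in 3 such lines given FHT-1015, which blocks the BAF ATPases SMARCA4 and SMARCA2, and in 92-1 given IDE196, which blocks protein kinase C. A further 2 sets of untreated libraries are used for their levels and for alternatives of the comparison, the 6 DMSO libraries of 92-1 that accompany IDE196 at the same times and the 6 of the third line, MEL202. Each line is 1 culture line, and the labels do not say whether the lines were grown, extracted and sequenced together. A difference between MP41 and 92-1 and a difference in handling between their samples cannot be told apart.

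Uveal melanoma arises from melanocytes of the eye, and most tumours carry an activating mutation in GNAQ or GNA11, the alpha subunits of Gq-family G proteins. The active subunit switches on phospholipase C beta, whose product activates protein kinase C and RASGRP3 and through them the MAP kinase cascade, and a second branch through TRIO frees the coactivator YAP to act with TEAD factors. MITF and SOX10 are the transcription factors that define the melanocyte lineage and switch on the pigment genes; 92-1 is known as a GNAQ-mutant line and MP41, established from a patient-derived xenograft, as a GNA11-mutant line.

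Between 15970346 and 22683188 reads per library were assigned to genes in 92-1 and between 17476118 and 22668217 in MP41. The first principal component of log2 CPM (read counts scaled to a common library total) separated the lines and held 81.6% of the variance; the second, with 9.11%, set apart MP41 24 h replicates 1 and 2. In those 2 libraries the deviation of a gene's log2 CPM from the mean of the other libraries of its line followed the GC content of its exons, with Pearson correlations across genes, which are not independent, of 0.622 and 0.813; the other MP41 libraries, whose reference included these 2, had correlations from -0.743 to -0.616. Genes under 40% GC had a median deviation of -0.544 and -1.45 on the log2 scale in replicates 1 and 2. Named genes and gene lists are therefore given also without these 2 libraries where leaving them out ends or makes a call, turns a direction or moves a count by more than 1.5 times. Transcripts encoded by mitochondrial DNA took 1.3% to 3.64% of reads in MP41 and 6.61% to 7.54% in 92-1, and ribosomal protein genes 5.02% to 6.05% against 10% to 11.9%. In the other 92-1 libraries these shares were 3.79% to 6.31% and 6.73% to 10%, and in MEL202 3.32% to 5.91% and 4.25% to 8.59%. The part of these shares in the results was not tested.

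**Figure D1:**
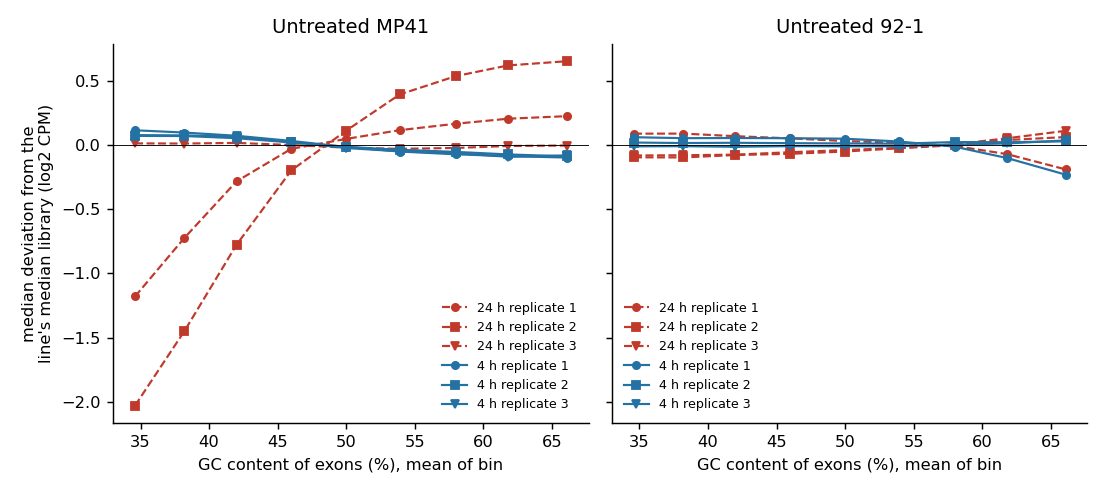
Median deviation of each library from the median library of its line (log2 CPM, vertical) in 9 bins of exon GC content (percent, horizontal), for MP41 on the left and 92-1 on the right, one line per library. MP41 24 h replicates 1 and 2 lie low among GC-poor genes and high among GC-rich genes, while every median of the other libraries of MP41 and 92-1 lies between -0.232 and 0.114.

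Of 16203 genes tested with time as a term, 6054 (37.4%) were higher and 5309 (32.8%) lower in MP41 at an adjusted p under 0.05 (edgeR's quasi-likelihood test, Benjamini-Hochberg), 70.1% in all. With so many small differences called, edgeR's test against a 2-fold difference is used for most statements below: 2403 genes (14.8%) were higher and 2072 (12.8%) lower in MP41 by more than 2-fold, 27.6% in all. Every MP41 library lay beyond every 92-1 library for 8266 genes (51%), and 8238 of them were called. Without MP41 24 h replicates 1 and 2, 2419 genes were higher and 2496 lower beyond 2-fold, which moves the share that is higher from 53.7% to 49.2%. The median difference over all genes tested was 0.0432 on the log2 scale.

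**Figure D2:**
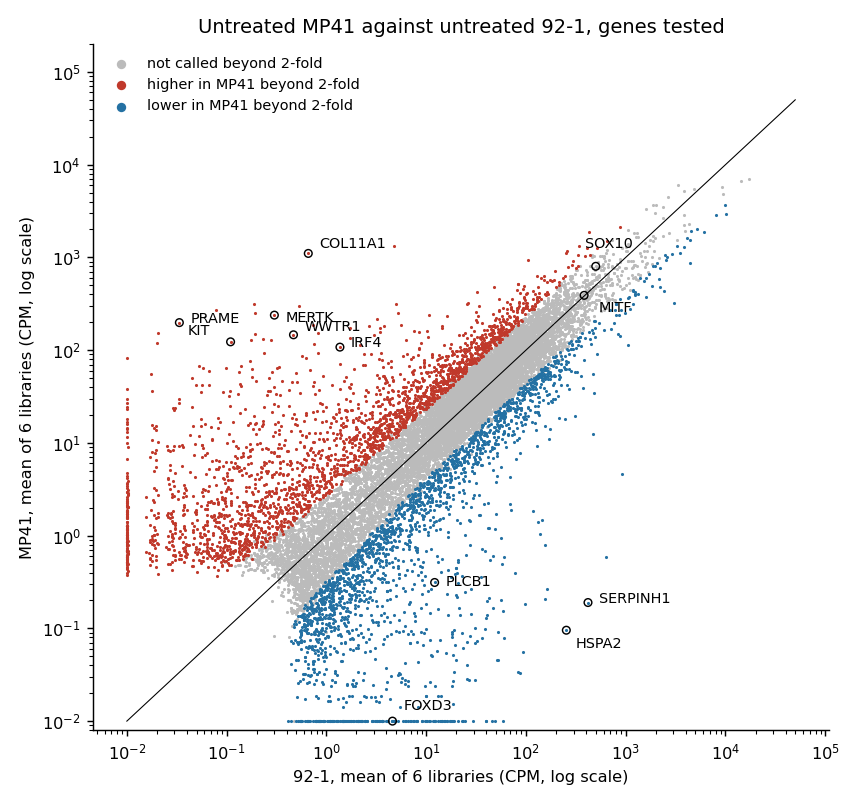
Mean CPM of each gene tested in the 6 libraries of 92-1 (horizontal, log scale) and of MP41 (vertical, log scale), with the lowest means drawn at the lower edge and the diagonal marking equal levels. COL11A1, MERTK, KIT and PRAME lie far above the diagonal and SERPINH1, HSPA2 and PLCB1 far below it, while MITF and SOX10 lie near it.

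Among protein-coding genes with more than 3 reads in some library of each line and a mean of at least 5 CPM, the 8 largest differences in each direction ranged from 632-fold to 2547-fold. Genes with 3 reads or fewer in every library of a line are described separately, since their fitted fold rests on those few reads. COL11A1, a fibrillar collagen chain, ranged from 995 to 1218 CPM (median 1101) in MP41 and from 0.305 to 1.27 (median 0.588) in 92-1. The lines did not overlap, and the fitted difference was 1646-fold (log2 10.68 ± 0.21 SE, adjusted p beyond 2-fold 3.4e-13 by edgeR). KIT, the receptor for stem cell factor on which melanocytes depend, ranged from 74.0 to 146 CPM (median 138) in MP41 and from 0 to 0.306 (median 0.0537) in 92-1, a log2 difference of 10.11 ± 0.39. MERTK, a receptor tyrosine kinase of the TAM family, ranged from 184 to 289 CPM (median 239) against 0.169 to 0.428 (median 0.302), with a log2 difference of 9.57 ± 0.18. In both receptors each MP41 library stood above every 92-1 library. The other 5 of the 8 largest were FAM129A (log2 10.34), FAM178B (10.04), GMPR (9.55), a reductase of guanosine monophosphate, PLTP (9.44), a phospholipid transfer protein, and BMP7 (9.31), a secreted bone morphogenetic protein.

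In the opposite direction, HSPA2, a heat shock protein of the HSP70 family, ranged from 0 to 0.240 CPM (median 0.0556) in MP41 and from 213 to 286 (median 259) in 92-1, a log2 difference of -11.31 ± 0.30. SERPINH1, the collagen chaperone HSP47, ranged from 0.0861 to 0.335 CPM (median 0.194) against 395 to 445 (median 416), 2145-fold lower in MP41 (log2 -11.07 ± 0.19, adjusted p beyond 2-fold 1.1e-13 by edgeR). MP41 thus had much COL11A1 transcript and almost none of this chaperone, whereas MEL202 held both, with 1220 to 2615 CPM of COL11A1 and 829 to 1240 of SERPINH1. SLC38A1, a glutamine transporter, ranged from 0.222 to 1.01 CPM (median 0.591) in MP41 and from 566 to 718 (median 638) in 92-1, a log2 difference of -10.06 ± 0.21. Others were ARMCX4 (-10.43), the glutamate receptor subunit GRIA4 (-9.85), TMEM98 (-9.51) and the lactate and pyruvate transporter SLC16A7 (-9.30), and for each the groups did not overlap. Each of these differences kept its direction and its call beyond 2-fold in every alternative that was run, but PLTP, whose exons overlap those of CTSA over 7.87% of their length, was 2.89 on the log2 scale when the stranded columns were summed in place of the unstranded counts. With few reads in the lower line, some sizes moved when a single library was left out. Without MP41 24 h replicate 3, GRIA4 was -10.84 and SLC16A7 -11.85. ARMCX4 was -11.23 without MP41 24 h replicate 1 and -11.63 without replicates 1 and 2. FAM178B was 11.90 without 92-1 4 h replicate 2, and KIT 10.74 without 92-1 24 h replicate 2. HSPA2 was -12.97 without MP41 24 h replicates 1 and 2. Over all alternatives the log2 difference ranged from 9.09 to 12.34 for KIT, 9.35 to 10.995 for MERTK, 8.94 to 10.50 for FAM129A, 8.72 to 13.59 for FAM178B, 8.88 to 9.91 for GMPR and 8.44 to 9.83 for BMP7. It ranged from -12.97 to -10.77 for HSPA2, -13.93 to -9.37 for ARMCX4, -11.14 to -9.22 for GRIA4, -11.89 to -8.49 for SLC16A7 and -10.27 to -9.04 for TMEM98. Such ranges, or the value that moved, are given below for other genes above the floor of 3 reads in both lines whose size moved by more than 1.5 times. Fitted sizes of genes at that floor depend on the tool and the few reads, and they are given by their levels and a bound instead.

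Many genes had few or no reads in a line. With 3 reads per library taken as the floor, 302 protein-coding genes called higher in MP41 had no 92-1 library above the floor, and 219 called lower had no MP41 library above it. These are counts within the genes already called and are given as a description; most were weakly expressed in the line that had them, with medians of the mean level of 1.62 CPM in MP41 and 2.91 in 92-1. Libraries that the fit did not use gave these counts. Of the 302, 182 were also at the floor in the 6 other 92-1 libraries and 5 were above it in all 6, and of the 219, 203 were above the floor in all 6 and 3 at it in all 6. MEL202 had 82 of the 302 above the floor in every library and 95 at it, and 119 of the 219 above it and 46 at it.

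The most abundant of these in MP41 was H1F0, a replacement linker histone, with 248 to 305 CPM (median 268) in MP41 and 0 to 0.183 in 92-1, at least 1611-fold higher against a floor of 3 reads per library. That bound holds for these 92-1 libraries alone: the other 92-1 libraries held 0.0936 to 1.38 CPM, against which the log2 difference was 8.75. PRAME, a cancer-testis antigen used as a marker of metastatic risk in uveal melanoma, ranged from 165 to 244 CPM (median 192) in MP41 and from 0 to 0.140 in 92-1, at least 1170-fold higher. MEL202 also expressed both, at 141 to 207 CPM for H1F0 and 287 to 367 for PRAME. The others were the mitochondrial protein CHCHD10 (at least 701-fold), FAM114A1, the transporter gene SLC5A4, the histone gene H2AFJ, and HTN1 and HTN3, which encode the salivary peptides histatin 1 and 3. The histatins varied widely within MP41, HTN1 from 6.79 to 288 CPM (median 196) and HTN3 from 2.89 to 148 (median 99.4); their lowest libraries were the 2 that were low in GC-poor genes, and the pair are close copies between which reads may be split. MEL202 had at most 5.32 CPM of HTN1 and 0.289 of HTN3. In 92-1 the most abundant genes at the floor in MP41 were CPXM1, a secreted carboxypeptidase-like protein (76.5 to 94.4 CPM against 0 to 0.144), the MYC-interacting factor CDCA7L (71.7 to 90.1 against 0 to 0.0560), CRTAC1, B3GALNT1, GBGT1, IGFBPL1, RASL10B and the G protein gamma subunit GNG11. B3GALNT1 encodes the glycosyltransferase that makes globoside, and GBGT1 an enzyme known as Forssman synthase, whose activity was not measured. Neither gene had a read in any MP41 library, against 49.8 to 70.2 and 40.9 to 57.5 CPM in 92-1.

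**Figure D3:**
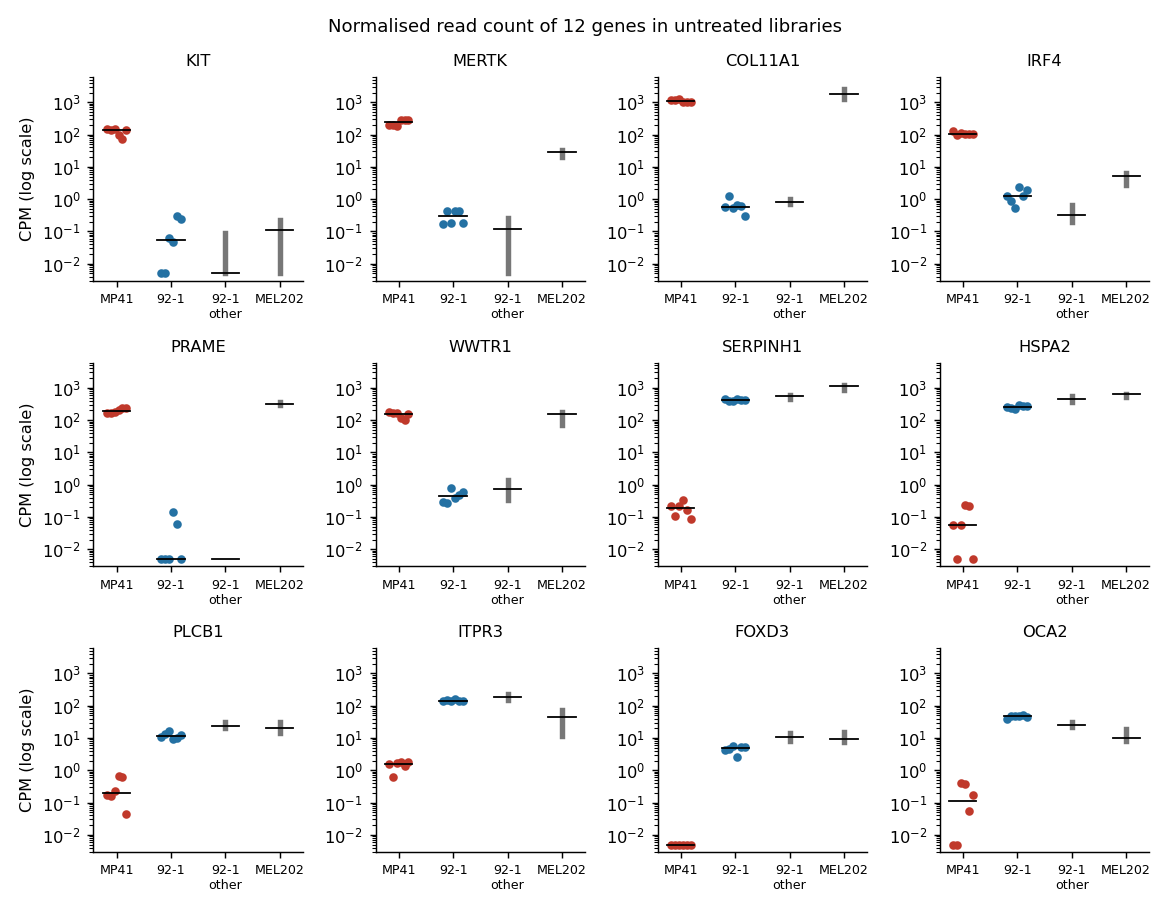
CPM (log scale) of 12 genes in untreated libraries: a point for each of the 6 libraries of MP41 and of 92-1, and a grey bar from lowest to highest for the 6 other 92-1 libraries and the 6 of MEL202, with black lines at the medians and libraries without reads drawn at the bottom level. In each panel the MP41 points and the 92-1 points do not overlap, and the other 92-1 libraries lie on the side of 92-1. The points were scaled over the libraries compared and the grey bars over all untreated libraries together.

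The lineage factors divided. MITF was not called: it ranged from 310 to 620 CPM (median 356) in MP41 and from 343 to 467 (median 375) in 92-1, with overlap and a log2 difference of 0.00 ± 0.14 whose sign changed among alternatives. It was called lower in MP41 at 4 h alone (log2 -0.31, adjusted p = 0.00058 by edgeR) and against the other 92-1 libraries, which held 510 to 599 CPM (log2 -0.52, adjusted p = 0.0027 by edgeR). SOX10 ranged from 417 to 1533 CPM (median 699) against 402 to 584 (median 493); its log2 difference of 0.54 ± 0.18 was called at an adjusted p of 0.015 by edgeR, but was 0.18 without MP41 24 h replicates 1 and 2, at an adjusted p of 0.11, and -0.07 at 4 h alone. The call was also lost with offsets for GC content and length (0.21) and against the other 92-1 libraries (0.02). In MP41 it stood at 417 to 494 CPM at 4 h and at 905 to 1533 at 24 h. Of 20 lineage factors tested, 7 were higher and 9 lower in MP41 (37.4% and 32.8% of all genes), 4 and 5 beyond 2-fold (14.8% and 12.8% of all genes). Of the 5, 1 was at the floor in MP41 and so passed the filter on low counts only through its 92-1 reads. IRF4, a MITF partner at the tyrosinase gene, ranged from 98.9 to 125 CPM (median 106) in MP41 and from 0.545 to 2.34 (median 1.26) in 92-1, 79.6-fold higher (log2 6.31 ± 0.24). ETV1, the ETS factor that works with KIT, was 3.37-fold higher, though no longer beyond 2-fold at 24 h alone (adjusted p = 0.057 by edgeR), the Notch target HEY1 4.98-fold and the MITF relative TFE3 2.60-fold, a call lost with offsets for GC content and length and against the other 92-1 libraries. On the other side, FOXD3, a neural crest factor, had no read in MP41 and 2.67 to 5.75 CPM (median 4.84) in 92-1, at least 29.5-fold lower. SNAI2, the neural crest and mesenchymal repressor SLUG, ranged from 13.3 to 32.0 CPM (median 15.7) in MP41 and from 180 to 273 (median 207) in 92-1, 11.5-fold lower (log2 -3.52 ± 0.22), and SOX5 and TFAP2C were 6.91-fold and 6.07-fold lower. Among alternatives, log2 differences ranged from 5.86 to 8.11 for IRF4 and from 1.72 to 2.54 for HEY1.

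Of 23 pigment genes tested, 4 were higher and 2 lower in MP41 beyond 2-fold, 26.1% of the list beside 27.6% of all genes. Against the other 92-1 libraries 7 were higher and 2 lower of 24, and the median log2 difference of the list moved from -0.0999 to 0.33. The lower members beyond 2-fold were 4 at 4 h alone and 1 at 24 h alone. The melanosome matrix protein PMEL ranged from 4645 to 7861 CPM (median 5541) in MP41 and from 8896 to 9916 (median 9197) in 92-1, and the melanin enzyme TYRP1 from 2762 to 6263 (median 5019) against 8268 to 10672 (median 9449); both were called lower in MP41, but not beyond 2-fold (log2 -0.69 ± 0.12 and -1.03 ± 0.14). MLANA, another melanosomal protein, overlapped between the lines, with a log2 difference of -0.13 ± 0.10 that was not called. Against the other 92-1 libraries it was called higher (log2 0.34, adjusted p = 0.013 by edgeR). Tyrosinase, TYR, the first enzyme of melanin synthesis, ranged from 755 to 1309 CPM (median 1061) in MP41 and from 281 to 420 (median 325) in 92-1, 3.16-fold higher. DCT, the dopachrome tautomerase, was 20.8-fold higher (90.3 to 166 CPM against 4.78 to 8.33) and the melanosomal transporter SLC45A2 4.83-fold higher (508 to 802 against 111 to 143). OCA2, a melanosomal transporter whose gene region is tied to eye colour, went the other way: it ranged from 0 to 0.392 CPM (median 0.114) in MP41 and from 38.5 to 50.7 (median 47.5) in 92-1, 264-fold lower (log2 -8.05 ± 0.38). MYO5A, the motor that carries melanosomes, was 2.51-fold lower, but not beyond 2-fold at 24 h alone. Over the alternatives the log2 difference ranged from 4.18 to 6.11 for DCT, 1.51 to 3.04 for TYR and -8.90 to -7.26 for OCA2.

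Along the Gq pathway, the alpha subunit genes GNAQ and GNA11 were called but not beyond 2-fold, whereas some of the enzymes and channels below them, and the gamma subunit gene GNG11 described above, were called beyond it. GNAQ ranged from 24.5 to 63.3 CPM (median 60.3) in MP41 and from 87.6 to 101 (median 98.0) in 92-1, called lower but not beyond 2-fold (log2 -0.95 ± 0.18). GNA11 ranged from 89.3 to 138 CPM (median 94.0) against 57.4 to 81.2 (median 72.5), a log2 difference of 0.51 ± 0.13 that was called, lost its call at 4 h alone and with GC and length offsets, and was -0.03 against the other 92-1 libraries, which held 97.0 to 106 CPM. PLCB1, a phospholipase C beta, ranged from 0.0431 to 0.671 CPM (median 0.195) in MP41 and from 9.54 to 16.8 (median 11.7) in 92-1, 38.3-fold lower (log2 -5.26 ± 0.38), while PLCB4, the isoform mutated in some uveal melanomas, was called 1.98-fold higher, though not beyond 2-fold. The inositol trisphosphate receptors, calcium channels that open on a product of phospholipase C, differed in both directions. ITPR3 ranged from 0.640 to 1.82 CPM (median 1.61) in MP41 and from 137 to 166 (median 143) in 92-1, 98.1-fold lower (log2 -6.62 ± 0.19), and ITPR1 was 4.80-fold higher (28.6 to 46.2 CPM against 7.10 to 9.33). Among protein kinase C isoforms, PRKCA ranged from 103 to 143 CPM (median 118) against 17.6 to 28.8 (median 24.6), 4.86-fold higher, and PRKCH was 6.58-fold higher (80.5 to 94.4 CPM against 12.1 to 15.8). RASGRP3, the exchange factor that carries the signal to RAS, was 2.47-fold lower beyond 2-fold, a call lost against the other 92-1 libraries (log2 -1.20, adjusted p = 0.072 by edgeR) and at 24 h alone, and RGS20, which speeds the inactivation of G proteins, was 9.16-fold lower. Of 25 genes of this list, 3 were higher and 5 lower beyond 2-fold, 32% beside 27.6% of all genes, and 5 and 5 against the other 92-1 libraries. PLCB1 was -6.53 on the log2 scale without MP41 24 h replicates 1 and 2. Among alternatives, log2 differences ranged from -6.53 to -4.57 for PLCB1, -7.05 to -5.57 for ITPR3 and -3.27 to -2.42 for RGS20.

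Of 22 genes induced by MAP kinase signalling, 14 were called higher and 4 lower in MP41 (37.4% and 32.8% of all genes), 6 and 1 beyond 2-fold (14.8% and 12.8%). The median log2 difference was 0.705, beside 0.0432 over all genes. IER3, an immediate-early gene, ranged from 135 to 238 CPM (median 177) in MP41 and from 1.78 to 3.49 (median 2.76) in 92-1, 66.4-fold higher (log2 6.05 ± 0.15); an antisense gene covers 26.5% of its exons. FOSL1, an AP-1 subunit, was 5.93-fold higher, SPRY1, a feedback inhibitor of receptor signalling, 3.94-fold, the ERK phosphatase DUSP6 3.82-fold and the ETS factor ETV5 3.27-fold. The direction was not uniform, since the phosphatase DUSP4 ranged from 122 to 166 CPM (median 133) in MP41 and from 413 to 584 (median 470) in 92-1, 3.54-fold lower. MYC was called lower, though not beyond 2-fold (log2 -1.03 ± 0.10), and CCND1, cyclin D1, was called higher by 0.75 ± 0.11, a difference of -0.05 against the other 92-1 libraries. Against those libraries the list held 11 higher and 7 lower, and its median was 0.189. Without MP41 24 h replicates 1 and 2 it held 7 higher and 2 lower beyond 2-fold. The lower members beyond 2-fold were also 2 at 4 h alone and when GC and length offsets were used, and those called lower were 2 at 24 h alone. Over the alternatives the log2 difference ranged from 5.43 to 6.14 for IER3 and from -2.50 to -1.66 for DUSP4.

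The YAP and TEAD list held 13 higher and 4 lower of 17 tested (37.4% and 32.8% of all genes), 8 and 1 beyond 2-fold (14.8% and 12.8%). Over the alternatives the higher members beyond 2-fold were 4 to 8 and the lower 0 to 3. The lower were 3 without MP41 24 h replicate 2, alone or together with replicate 1, at 4 h alone, with limma-voom and when GC and length offsets were used, and the higher were 5 at 24 h alone. In this list 1 member was at the floor in each line and passed the filter on low counts only through the other. WWTR1, the YAP relative TAZ, ranged from 101 to 175 CPM (median 159) in MP41 and from 0.265 to 0.787 (median 0.432) in 92-1, 311-fold higher (log2 8.28 ± 0.23). MEL202 resembled MP41 in this gene, with 68.8 to 175 CPM, and the other 92-1 libraries held 0.328 to 1.37. YAP1 itself overlapped between the lines, with a log2 difference of 0.47 ± 0.12 that was called, but not at 24 h alone (0.31), and that was -0.00 against the other 92-1 libraries. CTGF, a matricellular protein and a standard target of these coactivators, ranged from 34.2 to 264 CPM (median 149) in MP41 and from 0.918 to 4.87 (median 2.58) in 92-1, 42.3-fold higher (log2 5.40 ± 0.30). Within MP41 it stood at 224 to 264 CPM at 4 h and at 34.2 to 73.5 at 24 h. CYR61, its relative, was 5.14-fold higher (40.3 to 260 CPM against 18.3 to 32.0), and the Hippo kinase gene LATS2 3.07-fold, a call lost at 24 h alone and against the other 92-1 libraries. Against those libraries 8 of 16 were higher and 3 lower. Among alternatives, log2 differences ranged from 7.46 to 8.68 for WWTR1 and from 1.72 to 2.92 for CYR61.

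**Figure D4:**
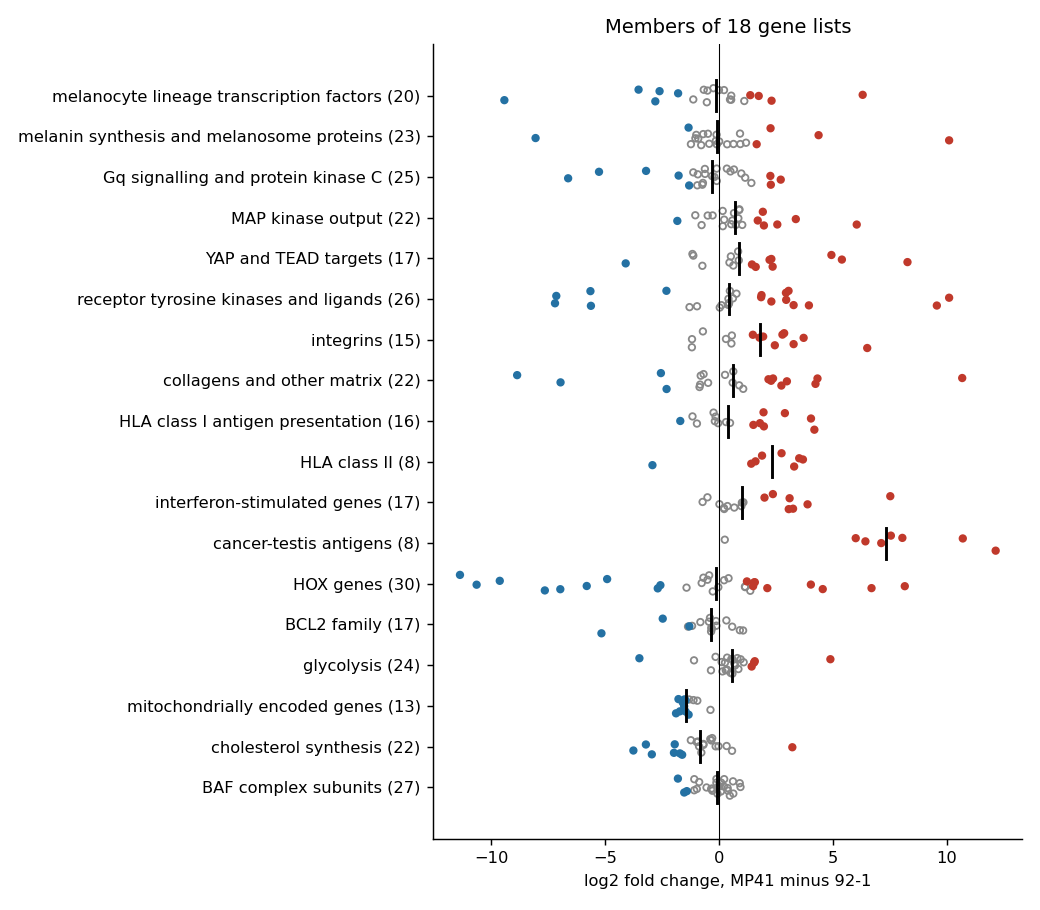
Log2 fold change of MP41 over 92-1 (horizontal) for each tested member of 18 gene lists (number tested in brackets), filled where called beyond 2-fold and open otherwise, with a black bar at the list's median. Integrins and HLA class II genes lie mostly right of 0 and mitochondrially encoded and cholesterol synthesis genes mostly left, while no BAF subunit is called beyond 2-fold right of 0.

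Of 26 receptor tyrosine kinases and ligands tested, 10 were higher and 5 lower in MP41 beyond 2-fold (14.8% and 12.8% of all genes). Of the 5, 2 were at the floor in MP41 and passed the filter on low counts only through their 92-1 reads. Against the other 92-1 libraries 9 were higher and 6 lower. Besides KIT and MERTK, MP41 had more MET, the hepatocyte growth factor receptor (337 to 519 CPM, median 434, against 104 to 145, median 114, 3.67-fold), and more DDR1, a collagen receptor (288 to 499, median 330, against 66.5 to 78.1, median 71.2, 4.95-fold). KITLG, the KIT ligand, was 9.73-fold higher, with 6.51 to 72.0 CPM (median 51.97) in MP41 and 3.11 to 4.90 (median 4.02) in 92-1, so that receptor and ligand were both higher in this line. EGFR was low in both lines, at 2.78 to 4.31 CPM against 0 to 0.857, and 15.5-fold higher in MP41 (log2 3.95, and 4.92 without 92-1 24 h replicate 2). Other receptors were lower in MP41. NTRK2, the receptor for brain-derived neurotrophic factor, ranged from 0.497 to 1.12 CPM (median 0.661) in MP41 and from 26.996 to 46.4 (median 34.6) in 92-1, 49.8-fold lower (log2 -5.64 ± 0.18), and ALK was 49.0-fold lower (0.0560 to 0.552 CPM against 14.8 to 24.0). FGFR1 was 4.93-fold lower (15.8 to 26.03 CPM against 89.2 to 98.9), and the ERBB ligand NRG1 was at the floor in MP41 and at 1.497 to 3.03 CPM in 92-1, at least 14.6-fold lower. Over the alternatives the log2 difference ranged from -6.25 to -5.37 for ALK, 1.55 to 2.59 for DDR1, 2.52 to 3.95 for KITLG and 3.02 to 4.92 for EGFR.

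Of 15 integrins tested, the receptors for matrix, 9 were higher and 0 lower in MP41 beyond 2-fold (14.8% and 12.8% of all genes). The counts were 6 and 2 of 16 against the other 92-1 libraries, 8 and 2 at 4 h alone, 7 and 1 under the GC and length offsets, 7 and 1 of 17 without MP41 24 h replicates 1 and 2, and 8 and 1 of 17 without replicate 2 alone. ITGB3, which pairs with the alpha V subunit, was 91.4-fold higher (10.2 to 23.8 CPM against 0.0612 to 0.244), though another annotated gene covers 51.6% of its exons. Reads that fit both genes are set apart as ambiguous in the unstranded counts. The laminin-binding subunit ITGA3 ranged from 88.4 to 171 CPM (median 102) in MP41 and from 5.85 to 11.6 (median 8.83) in 92-1, 13.2-fold higher (log2 3.72 ± 0.20). Its difference was 2.04 on the log2 scale against the other 92-1 libraries, which held 23.01 to 33.7 CPM. Of 22 collagen and matrix genes, 8 were higher and 4 lower beyond 2-fold (14.8% and 12.8% of all genes), and against the other 92-1 libraries 6 and 10 of 28. Of the 4, 2 were at the floor in MP41 and passed the filter only through their 92-1 reads. The laminin chain LAMC1 was 4.53-fold higher (907 to 1452 CPM against 217 to 283), while the basement membrane collagens COL4A1 and COL4A2 were 5.83-fold and 4.90-fold lower. BGN, the proteoglycan biglycan, was at the floor in MP41 and at 15.9 to 21.8 CPM in 92-1, at least 122-fold lower. A pair of cadherins differed in opposite directions, CDH2 (N-cadherin) being 30.6-fold higher in MP41 (11.1 to 18.9 CPM against 0.370 to 0.847) and CDH3 (P-cadherin) at the floor there, at least 152-fold lower (20.3 to 26.4 CPM in 92-1). Among alternatives, log2 differences ranged from 4.95 to 7.36 for ITGB3, 1.36 to 2.39 for LAMC1, -3.24 to -1.99 for COL4A2 and 3.67 to 5.10 for CDH2.

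Of 16 genes of HLA class I antigen presentation, 7 were higher and 1 lower in MP41 beyond 2-fold (14.8% and 12.8% of all genes), and 5 and 2 against the other 92-1 libraries. The lower count was 2 under the GC and length offsets and 0 with the stranded columns summed. Of the 7, 1 was at the floor in 92-1 and passed the filter only through its MP41 reads. HLA-B ranged from 69.6 to 99.9 CPM (median 85.5) in MP41 and from 8.32 to 12.9 (median 11.6) in 92-1, 7.47-fold higher (log2 2.90 ± 0.13), and the peptide transporter subunit TAP1 from 46.1 to 74.4 (median 49.9) against 2.76 to 3.99 (median 3.08), 16.5-fold higher. HLA-C was 3.94-fold higher, but its log2 difference of 1.98 fell to 0.87 against the other 92-1 libraries and was then not called beyond 2-fold. HLA-E was 3.90-fold higher. B2M, the shared light chain, went the other way, from 71.0 to 208 CPM (median 184) in MP41 and from 290 to 391 (median 311) in 92-1, called lower but not beyond 2-fold (log2 -0.96 ± 0.20) and not called against the other 92-1 libraries (-0.34). HLA genes are highly variable between people and resemble one another, so their counts against 1 reference are uncertain. Class II genes were low in both lines, and 7 of the 8 tested were higher in MP41 beyond 2-fold and 1 lower (14.8% and 12.8% of all genes). Examples were HLA-DMA (16.4 to 23.03 CPM against 0.957 to 1.83, 12.9-fold), HLA-DMB (11.5-fold) and HLA-DPA1 (3.72-fold). The single lower member was CIITA, the activator of class II transcription (log2 -2.91), with other annotated genes over 23.9% of its exons, whose call beyond 2-fold was lost with the stranded columns summed (-0.70) and against the other 92-1 libraries (-1.42). Those higher beyond 2-fold were 4 with DESeq2, at 4 h alone and against the other 92-1 libraries. Over the alternatives the log2 difference ranged from 1.97, with the stranded columns summed, to 3.81 for HLA-DMA, 2.13 to 3.21 for HLA-B, 1.36 to 2.28 for HLA-E and 2.77 to 4.20 for TAP1.

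Of 17 interferon-stimulated genes tested, 11 were called higher and 0 lower (37.4% and 32.8% of all genes), and 7 of the 24 annotated were too low to test. At 4 h alone 1 of 16 was called lower. Of the 11, OAS1 was at the floor in 92-1 and passed the filter only through its MP41 reads. OAS3, an antiviral synthetase, ranged from 20.8 to 31.5 CPM (median 24.2) against 2.26 to 3.77 (median 3.05), 8.39-fold higher (log2 3.07 ± 0.16). OAS1 was at the floor in 92-1 and at 2.51 to 3.50 CPM in MP41, at least 17.4-fold higher, with 0.0936 to 0.506 CPM in the other 92-1 libraries, and IFIH1, the RNA sensor MDA5, was 14.9-fold higher (4.45 to 8.79 CPM against 0.140 to 0.915). IFI6 was 4.01-fold higher, but 1.06 on the log2 scale against the other 92-1 libraries, without a call beyond 2-fold. Of 27 cancer-testis genes, which most adult tissues keep silent, 25 were at the floor of 3 reads in every 92-1 library and 14 in every MP41 library. In all, 8 passed the filter on low counts. Of these, 7 were at the floor in 92-1 and so passed through their MP41 reads alone, which leaves a count of calls without meaning. MAGEA6, for example, ranged from 21.99 to 29.8 CPM (median 27.9) in MP41 and from 0 to 0.0563 in 92-1, at least 158-fold higher, with the limit that MAGEA genes are near-identical copies. ECM1, named with PRAME among genes high in metastasis-prone uveal melanoma, ranged from 117 to 185 CPM (median 124) against 0.957 to 2.91 (median 1.55), 77.3-fold higher (log2 6.27 ± 0.25). Of 4 genes listed as high in such tumours and tested, 3 were called higher and 0 lower, with 1 of the 4 at the floor in 92-1. Of 8 listed as high in less metastasis-prone tumours, 3 were called higher and 2 lower. Against the other 92-1 libraries these counts were 2 and 2 of 5, and 2 and 3 of 8. Among alternatives, log2 differences ranged from 4.93 to 6.73 for ECM1, 2.07 to 3.32 for OAS3 and 2.97 to 4.28 for IFIH1.

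HOX genes, which mark position along the body axis, differed in which members were on. Of 30 tested, 9 were higher and 9 lower beyond 2-fold (14.8% and 12.8% of all genes). Without MP41 24 h replicates 1 and 2, 7 were higher and 11 lower of 31. Of the 30, 4 were at the floor in MP41 and 3 in 92-1, and these passed the filter on low counts only through the other line. HOXA11 (13.7 to 21.3 CPM in 92-1, with an antisense gene over 31.1% of its exons) and HOXC11 (10.0025 to 11.6) had no read in MP41, at least 114-fold and 68.3-fold lower. HOXB13 (16.2 to 20.2 CPM) was at the floor, at least 119-fold lower, and HOXB7 was 199-fold lower (0 to 0.336 CPM against 37.1 to 42.5). HOXC10 was at the floor in 92-1 and at 16.0 to 20.1 CPM in MP41, at least 106-fold higher, HOXB2 at least 44.01-fold higher (6.40 to 8.62 CPM), HOXC4 16.5-fold and HOXB4 4.37-fold. Neighbours within the HOXB cluster thus lay on opposite sides, HOXB2 and HOXB4 higher and HOXB7 and HOXB13 lower in MP41. Among imprinted genes, NDN, encoding necdin, ranged from 77.7 to 110 CPM (median 82.7) in MP41 and from 0.394 to 0.795 (median 0.563) in 92-1, 149-fold higher (log2 7.22 ± 0.16). PLAGL1 and PEG3, zinc finger proteins of other imprinted domains, were at the floor in MP41 and at 8.17 to 10.3 and 2.65 to 3.15 CPM in 92-1, at least 58.4-fold and 18.96-fold lower. Replication-dependent histone genes, whose transcripts mostly lack the tail that these libraries select, were called higher for 8 of 10 tested and lower for 0 (37.4% and 32.8% of all genes), led by HIST1H1C (8.44-fold) and HIST1H2AC (7.77-fold). Over the alternatives 6 to 8 were called higher and 0 or 1 lower, and 3 to 6 were higher beyond 2-fold. Leaving out MP41 24 h replicate 2 or 92-1 24 h replicate 1 alone gave 1 lower. Over the alternatives the log2 difference ranged from 3.83 to 5.20 for HOXC4 and from 2.29 to 3.34 for HIST1H2AC.

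Of 24 genes listed as cell cycle inhibitors, cyclins, RB family members and their regulators, 5 were higher and 1 lower in MP41 beyond 2-fold (14.8% and 12.8% of all genes), with 4 to 6 and 0 to 2 over the alternatives. CDKN1A, the cell cycle inhibitor p21, ranged from 262 to 394 CPM (median 328) against 54.6 to 75.5 (median 64.9), 5.17-fold higher (log2 2.37 ± 0.10), and MDM2, the ubiquitin ligase of p53, from 159 to 366 (median 303) against 54.0 to 62.1 (median 60.6), 4.63-fold higher. The other 92-1 libraries held more of both, 111 to 187 CPM of CDKN1A and 94.6 to 126 of MDM2, and against them CDKN1A was higher by 1.16 on the log2 scale and not called beyond 2-fold, and MDM2 by 1.32. CDKN2A was not called, at 19.99 to 29.2 CPM against 22.5 to 29.1. It was called lower in 4 of 27 alternatives, without MP41 24 h replicates 1 and 2 (log2 -0.35), under the GC and length offsets (-0.48), at 4 h alone (-0.31) and with limma-voom (-0.22). In the BCL2 family, 0 of 17 were higher and 3 lower beyond 2-fold (14.8% and 12.8% of all genes). BID, which links death receptors to mitochondria, ranged from 0.718 to 1.72 CPM (median 1.15) in MP41 and from 39.4 to 46.2 (median 42.9) in 92-1, 35.6-fold lower (log2 -5.15 ± 0.17), and the survival gene BCL2 from 29.4 to 44.2 (median 36.7) against 165 to 239 (median 203), 5.51-fold lower.

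Of 24 glycolysis genes, 17 were called higher and 3 lower (37.4% and 32.8% of all genes), 4 and 1 beyond 2-fold (14.8% and 12.8%). Without MP41 24 h replicates 1 and 2 the called genes were 14 higher and 4 lower, with the offsets 15 and 5, and against the other 92-1 libraries 13 and 6. SLC16A3, the lactate exporter MCT4, ranged from 27.2 to 91.3 CPM (median 41.1) in MP41 and from 1.28 to 2.01 (median 1.37) in 92-1, 29.8-fold higher (log2 4.90 ± 0.25). SLC2A1, the glucose transporter GLUT1, was 2.92-fold higher, a difference of 0.73 on the log2 scale and no call beyond 2-fold against the other 92-1 libraries, and the neuronal enolase ENO2 was 11.2-fold lower. Of 13 protein-coding genes of mitochondrial DNA, 12 were called lower (32.8% of all genes), 9 beyond 2-fold (12.8%), such as MT-CO3, a subunit of cytochrome c oxidase (1908 to 3744 CPM, median 2991, against 9126 to 11091, median 10255). These are the genes behind the mitochondrial share given above. With offsets for GC content and length 1 of 13 was lower beyond 2-fold, and against the other 92-1 libraries 4. Without MP41 4 h replicate 3 also 4 were, and at 24 h alone 3. MT-CO3 itself lost its call beyond 2-fold with the offsets (log2 -1.13) and against the other 92-1 libraries (-1.02). Cholesterol synthesis was called lower for 15 of 22 genes and higher for 1 (32.8% and 37.4% of all genes). HMGCS1, the synthase that begins the pathway, ranged from 11.8 to 45.9 CPM (median 39.3) in MP41 and from 219 to 752 (median 490) in 92-1, 13.5-fold lower (log2 -3.75 ± 0.22). FDFT1, squalene synthase, was 9.20-fold lower (101 to 129 CPM against 874 to 1209) and MSMO1 7.68-fold lower. TM7SF2, a sterol reductase, was the exception, 9.36-fold higher. Without MP41 24 h replicates 1 and 2 this list held 19 lower and 2 higher of 22, and without replicate 2 alone 18 and 2. Over the alternatives 11 to 20 were called lower and 1 to 3 higher. Among alternatives, log2 differences ranged from 4.28 to 5.41 for SLC16A3, -4.01 to -3.02 for HMGCS1, -3.11 to -2.21 for MSMO1 and 1.97 to 3.55 for TM7SF2.

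Of 27 subunits of BAF, the chromatin remodelling complexes whose ATPases FHT-1015 blocks, 8 were called higher and 10 lower in MP41, 66.7% beside 70.1% of all genes. The called subunits were 3 higher and 11 lower against the other 92-1 libraries, and 8 higher and 16 lower under the GC and length offsets. Beyond 2-fold 0 were higher and 3 lower (14.8% and 12.8% of all genes), and against the other 92-1 libraries 0 and 5. The ATPase SMARCA4 ranged from 437 to 867 CPM (median 479) in MP41 and from 256 to 309 (median 282) in 92-1, called higher by 0.95 ± 0.15 on the log2 scale but not beyond 2-fold. The other 92-1 libraries held 541 to 677 CPM, and against them the difference was -0.13. SMARCA2, the alternative ATPase, ranged from 46.4 to 58.1 CPM (median 53.7) against 40.9 to 50.8 (median 45.6), with overlap and a log2 difference of 0.23 ± 0.09 (adjusted p = 0.031 by edgeR) whose call was lost in 13 of 27 alternatives, RLE, DESeq2 and each time alone among them. The 3 lower subunits were BICRAL (3.47-fold), BRD7 (2.87-fold, with other annotated genes over 42.4% of its exons) and SS18L1 (2.65-fold), the last without a call beyond 2-fold against the other 92-1 libraries. Of the genes mutated in uveal melanoma, 0 of 7 were called beyond 2-fold (27.6% of all genes), and 1 higher and 1 lower against the other 92-1 libraries and without a filter on low counts. BAP1 was called higher by 0.63 ± 0.11 and by 0.16 against the other 92-1 libraries, where it was not called, and SF3B1 and EIF1AX were not called. These 2 genes were each called in some alternatives. SF3B1 was called higher in 4 of 27, at 4 h alone (log2 0.15), with limma-voom (0.27), without MP41 24 h replicates 1 and 2 (0.21) and without replicate 2 alone (0.25). EIF1AX was called lower in 6 of 27, with RLE (-0.46), DESeq2 (-0.46) or no filter on low counts (-0.41), at 4 h alone (-0.15), against the other 92-1 libraries (-0.53) and without MP41 24 h replicate 3 (-0.52).

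Markers of other cell types were low. Fibroblast markers summed to 28.98 to 46.7 CPM in MP41 and 3.66 to 5.57 in 92-1, and 4 of the 10 passed the filter on low counts; COL1A1 held the most (12.2 to 36.8 CPM against 2.08 to 3.28), followed by LUM (20.1-fold) and ACTA2 (7.59-fold). The other 92-1 libraries held 6.32 to 23.8 CPM of COL1A1, and against them its difference was 0.84 on the log2 scale and not called beyond 2-fold. Over the alternatives ACTA2 ranged from 1.39 to 3.01 and LUM from 4.05 to 4.98. Epithelial markers summed to 5.84 to 12.1 CPM against 1.32 to 2.24, led by KRT8 (1.92 to 4.53 against 0 to 0.0610), which the other 92-1 libraries expressed at 0.480 to 6.78. Of 5 tested, 3 were called higher and 0 lower (37.4% and 32.8% of all genes). Of the 5, 3 were at the floor in 92-1 and passed the filter only through their MP41 reads. The list turned round against the other 92-1 libraries, with 0 higher and 5 lower of 8. Its median log2 difference moved from 3.43 to -1.62. The only leukocyte marker high enough to test was LYZ, which passed the filter through its MP41 reads alone, with a median of 1.98 CPM and a highest level of 2.65 in MP41 and at most 0.0612 in 92-1. Another annotated gene covers 33.96% of its exons. Leukocyte markers summed to at most 3.53 CPM, with no read of CD2 in either line and at most 13 reads of PTPRC in a library, and endothelial markers to at most 3.78. The part of other cells in the results was not tested.

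Median differences varied between chromosomes. Each chromosome was split at its longest stretch without an annotated gene start, except 13, 14, 15, 21 and 22, which were taken whole, and the median log2 difference of the genes tested on each side is given as a description with no test. The lowest median was on chromosome 8 before its gap (43674591 to 46028892), -1.24 over 218 genes, of which 83.0% were below 0 and 46.8% lower beyond 2-fold, against 12.8% of all genes. FDFT1, DUSP4, FGFR1, NRG1 and MTUS1, all named here as lower beyond 2-fold, start there; MTUS1 was 2.53-fold lower and lost that call with limma-voom and against the other 92-1 libraries. Genes after the gap of the same chromosome had a median of 0.43 (404 genes). Chromosome 16 after its gap followed at -0.71 (328 genes, 27.7% lower beyond 2-fold), where BRD7, the RB relative RBL2 (2.71-fold lower, without a call beyond 2-fold at 24 h alone) and CDH3 lie. The highest medians were 0.63 on chromosome 17 before its gap (282 genes) and 0.48 on chromosome 11 after its gap (582 genes). Chromosome 6 after its gap had -0.60, but that median varied among MP41 libraries from -1.24 to -0.36, whereas chromosome 8 before its gap kept to between -1.54 and -1.08, and to between -0.0591 and 0.0532 in the 92-1 libraries. Copy number was not measured in these data.

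**Figure D5:**
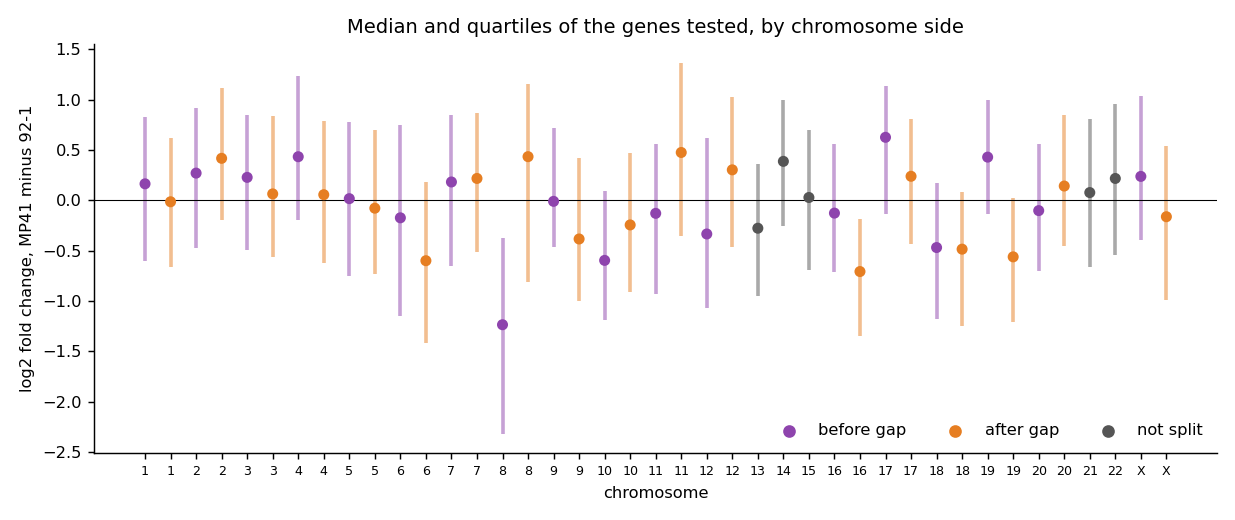
Median (point) and quartiles (bar) of the log2 fold change of MP41 over 92-1 for the genes tested on each side of each chromosome's longest stretch without a gene start, in chromosome order; chromosomes 13, 14, 15, 21 and 22 are not split. Chromosome 8 before its gap is the lowest point at -1.24, and its whole bar lies below 0.

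Whether the difference between the lines was the same at 4 h and 24 h was asked with a line-by-time term. In this fit 1 of 16203 genes (0.00617%) had such a term at an adjusted p under 0.05 by edgeR, with 1962 at an unadjusted p under 0.05. That count varied from 0 to 4849 with the tool and the libraries. The gene was NAV3, a microtubule-associated navigator protein, which in MP41 stood at 27.3, 28.4 and 30.4 CPM at 4 h and at 4.31, 2.78 and 5.94 at 24 h. In 92-1 it stood at 34.6, 32.3 and 40.6 CPM and at 31.2, 26.4 and 35.7, so the lines were close at 4 h and apart at 24 h.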

How the data were processed

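RNA was measured in untreated cells by poly-A RNA sequencing with a kit that does not mark strand, per the labels' protocols. The authors deposited read counts per gene for each library, 58870 genes and 92 spike-in controls without reads; the unstranded count column was used as deposited. The submitters' processing notes name hg38 and limma; the aligner is not given in the sources used here. Gene names, types and lengths came from GENCODE 29 (58552 identifiers matched, 47420 with the same version).

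MP41 was compared with 92-1 in R 4.3.3 with edgeR 4.0.16 (TMM, filterByExpr by line and time, quasi-likelihood F-test with time as a term, glmTreat for differences beyond 2-fold, Benjamini-Hochberg over all genes tested, threshold 0.05), tested first on simulated data. The line-by-time term was fitted on the same libraries. DESeq2 1.42.0, limma 3.58.1 and other filters, scalings, libraries and offsets were alternatives. The libraries are labelled as biological replicates, and nothing says that they came from separate cultures, so p-values measure only the spread between these samples. No pair of libraries agreed within sampling noise (smallest chi-square per degree of freedom 4.18).

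Members and lists were chosen with earlier results of these data known. Of 183 genes considered for naming, 151 came from a rule: the 8 largest differences per direction with over 3 reads in a library of each line and a mean of at least 5 CPM; the 8 most abundant per direction at 3 reads or fewer in every library of the other line; up to 3 per list and direction; and fixed lineage, driver and BAF genes. A further 32 were chosen after their values were seen: FOXD3, TYR, TYRP1, PMEL, MLANA, DUSP6, ETV5, MET, DDR1, EGFR, NRG1, HOXB7, HOXB2, PEG3, PLAGL1, B2M, HLA-E, OAS1, IFIH1, LAMC1, YAP1, LATS2, KRT8, LUM, ACTA2, PLCB4, RASGRP3, ITGB5, TFE3, ENO2, CIITA and LYZ. A part of the rule that adds abundant genes without a difference was not used, not every gene considered is described, and some results are not reported here. Of the 183, 79 overlap another gene, and the unstranded counts set reads that fit both genes apart as ambiguous.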

Additional observations from a re-analysis of the deposited data

Results flagged for a closer look

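The difference between the lines depended on time for NAV3. Its line-by-time term was -2.51 on the log2 scale (adjusted p = 0.0413 by edgeR's quasi-likelihood test over all genes): the 3 MP41 libraries at 24 h were lower than the 3 at 4 h, while the 92-1 libraries overlapped between times. MP41 24 h replicate 3 held 5.94 CPM. The part of the GC-linked deviation of other MP41 24 h libraries in the line-by-time term was not tested. The call was lost with library size alone, with the stranded columns summed, with MEL202 added, against the other 92-1 libraries and in most fits that left out 1 library.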

How the results depend on the processing

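Counts of genes called, and called beyond 2-fold, stayed within 1.5 times in each direction under every alternative run, and the median of chromosome 8 before its gap and of chromosome 6 after its gap moved by less than the spread between libraries. That spread, the larger standard deviation within a line, was 0.178 for chromosome 8 before its gap and 0.362 for chromosome 6 after its gap. It was 0.054 for chromosome 16 after its gap and 0.024 for chromosome 11 after its gap. A shift that counts as a move there may not count for chromosome 6. The count of genes with a line-by-time term was 1; it was 9 with RLE size factors, 0 with library size alone, 566 without the low-count filter, 156 with DESeq2, 4849 with limma-voom, 0 with the stranded columns summed, 0 with MEL202 added, 98 with offsets for GC content and length, 0 against the other 92-1 libraries, 84 without MP41 24 h replicates 1 and 2 (an alternative chosen after seeing the data), and 0 to 4158 when 1 library was left out, the highest without MP41 24 h replicate 3 and 18 without replicate 2; the cause was not tested. The median of chromosome 16 after its gap was -0.78 with RLE or DESeq2, -1.03 without the filter, -0.77 with MEL202, -0.87 at 4 h, -0.60 at 24 h, -0.86 with the offsets and -0.89 without the 2 libraries. That of chromosome 11 after its gap was 0.40 with RLE or DESeq2, 0.53 with library size alone, 0.014 without the filter, 0.41 with MEL202, 0.37 at 4 h, 0.39 with the offsets, 0.38 without the 2 libraries, and 0.46 to 0.53 leaving out 1 library. Chromosome 17 before its gap gave 0.29 without the filter, 0.41 at 4 h, 0.47 with the offsets and 0.43 without the 2 libraries, and chromosome 8 after its gap 0.13 without the filter. The median over all genes was -0.0308 with RLE and -0.224 without the filter.

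The MITF log2 fold change changed sign with RLE (-0.0738) or DESeq2 (-0.0737), without the filter (-0.0341), with voom (-0.0160), the stranded sum (-0.0193), MEL202 (-0.0668), at 4 h (-0.309) and against the other 92-1 libraries (-0.524), where it was called, and in 3 of the fits that left out 1 library (-0.106 to 0.084 over all 12). Against the other 92-1 libraries, sign also changed for CCND1 (-0.0451), GNA11 (-0.0253), KRT8 (-0.361), SMARCA4 (-0.132), YAP1 (-0.00314), MLANA (0.340, called) and CDKN2A (0.0311). CDKN2A was 0.0802 with the stranded sum, the MLANA log2 fold change 0.0713 with the offsets, SOX10 -0.0663 at 4 h and SF3B1 -0.0498 at 24 h. Of 183 genes, 136 kept direction and call in every alternative, 39 lost a call in at least 1 and 10 changed sign. Replicate numbers were not a term in the main fit. Deviations of same-numbered libraries correlated from -0.32 to 0.52, with 6 of 18 above 0.1. Those of other-numbered libraries correlated from -0.54 to 0.38, with 6 of 36 above 0.1. Whether the numbers pair the libraries was not tested. With the replicate number as a block, 11221 genes were called and 4422 beyond 2-fold, and MITF was -0.00228.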
